A study of Homo sapiens with 30 samples.

Results

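The genes described here encode small nuclear and nucleolar RNAs, and were followed in HepG2 cells treated with Sorafenib. HepG2 is an established human liver cancer cell line, and Sorafenib is a multikinase inhibitor used in liver cancer. A gene was a member where the GENCODE annotation gave it the type snRNA, snoRNA or scaRNA and its raw counts summed to at least 30 over the 30 libraries. This left 190 of 2838 annotated genes of these types, of which 556 had any count. By type, 87 of 1872 snRNA genes, 92 of 921 snoRNA genes and 11 of 45 scaRNA genes were members. The members just inside the threshold, at 30 counts, were RNU2-33P, RNU6-15P and RNU7-40P, whereas SNORA54, SNORA66 and SNORA71D were just outside at 29. Members were therefore chosen on their level over all libraries, and levels are given as a description. RNU5B-1, the reference of this account, was picked for its response to Sorafenib, so its Sorafenib values carry no test.

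All cells were transfected with Lipofectamine RNAiMAX and, 24 h later, received 10 µM Sorafenib or its solvent dimethyl sulfoxide (DMSO). In the 6 h experiment the cells carried an inhibitor transfection control (IC) or an inhibitor of miR-200c-3p (I200c). In the 24 h experiment they carried a mimic transfection control (MC) or a mimic: M222 stands for that of miR-222-5p, and M512 for that of miR-512-3p. Each of the 10 combinations of transfection and treatment had 3 libraries. The study describes these sequencing experiments as 3 independent replicates, without saying whether each library came from a separate culture. The p-values measure the spread between these libraries, and how much of it is technical is not known. Time and the kind of oligonucleotide cannot be told apart across the 2 experiments.

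Small nuclear RNAs (snRNAs) are the RNA cores of the spliceosome: U1 pairs with the 5′ splice site, U2 with the branch point, and U4, U5 and U6 join as a tri-snRNP. Small nucleolar RNAs (snoRNAs) guide ribosomal RNA modification, those of the C/D box kind for methylation and those of the H/ACA kind for pseudouridine, and small Cajal body RNAs (scaRNAs) do the same for snRNAs. Most snRNAs are transcribed from their own promoters and cut by the Integrator complex, while most snoRNAs are released from introns of host genes, and the mature forms of both lack a poly(A) tail. The libraries were QuantSeq 3′ FWD libraries, which start with an oligo(dT) primer. A count thus stands for a polyadenylated form, an A-rich stretch that the primer met, or a host transcript that covers the gene, and not for the mature RNA pool. These sources cannot be told apart from gene counts. Nor can fewer cells of a state and less RNA per cell be told apart in bulk samples.

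The U1 variants are shown because 2 of them passed the test in opposite directions, so that the shared and the differing parts can be seen. Sequences here are those of the GRCh38 reference on the strand of the gene, written 5′ to 3′. In the U1 variants the capitals mark the 5′ end that pairs with the 5′ splice site, ACTTACCTG, and the Sm site, ATTTGTGG, where the Sm protein ring binds. RNVU1-31 is at chr1:145465617-145465780 on the minus strand, RNVU1-7 at chr1:148038753-148038916 on the minus strand, and RNVU1-25 at chr1:146409903-146410062 on the plus strand.
RNVU1-31: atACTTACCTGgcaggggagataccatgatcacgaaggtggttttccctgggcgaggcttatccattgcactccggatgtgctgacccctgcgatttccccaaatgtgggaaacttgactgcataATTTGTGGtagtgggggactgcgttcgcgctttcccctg
RNVU1-7: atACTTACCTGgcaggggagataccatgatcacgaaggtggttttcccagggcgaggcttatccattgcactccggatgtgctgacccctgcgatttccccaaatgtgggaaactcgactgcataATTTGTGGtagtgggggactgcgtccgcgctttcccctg
RNVU1-25: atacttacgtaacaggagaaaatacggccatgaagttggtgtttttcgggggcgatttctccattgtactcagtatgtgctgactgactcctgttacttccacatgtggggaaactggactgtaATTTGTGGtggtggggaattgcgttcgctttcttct

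RNVU1-25 held the Sm site but not ACTTACCTG, and was 71.3% identical to RNVU1-31. RNVU1-31 was 98.2% identical to RNVU1-7 and to RNVU1-28, so the counts of these near-identical copies are uncertain, since a read that fits several copies may be dropped or split. Of the 20 U1 members, 13 held ATTTGTGG and 8 held ACTTACCTG on the gene strand, against 46.9% and 34.5% of 145 annotated U1 genes. For 5 members another annotated gene had the identical sequence.

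Members took 140189 counts in all, which was 0.0177% to 0.156% of each library. The libraries held 3938764 to 9657063 counts (median 6460786), so that a count of 0 in a library allows a level of up to 0.311 to 0.762 counts for each 1000000 of a library (CPM), taking 3 counts as the limit and for counting error only. A library held a count for 63 to 143 members, and the median member was seen in 17 of 30 libraries. Over all libraries 52 members averaged at least 1 CPM and 4 at least 10 CPM. For 13 members at least 50% of all counts came from 1 library. Most members were thus near the detection limit, and a missing call at this depth does not show that a level was the same.

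The classes were uneven in number and level. There were 42 U6, 41 C/D box, 36 H/ACA box, 20 U1, 13 scaRNA (by symbol, which adds SCARNA18 and SCARNA18B of type snoRNA to the 11 of type scaRNA), 8 U4, 6 U7, 4 U2 and 4 U5 members, 3 of the minor spliceosome and 13 snoRNA genes with no class in their names. Of the snRNA members, 64 had a symbol ending in P, as pseudogenes do. The minor spliceosomal class took 55.1% of member counts, C/D box 15.8%, H/ACA box 9.61%, scaRNA 6.45%, U6 4.6%, U1 2.75% and U5 2.32%. Introns of a gene on the same strand held 130 members and 75.5% of the member counts, and exons of such a gene overlapped 31 members with 9.38%. The 23 members with no other gene over them held 13.3%.

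The highest member was RNU4ATAC, the U4-like RNA of the minor spliceosome, which removes a rare class of introns. It lies at chr2:121530881-121531007 on the plus strand, inside an intron of CLASP1-AS1, and took 54.7% of all member counts with a mean of 366.6 CPM. SNORD13, which takes part in acetylation of 18S ribosomal RNA, averaged 69.9 CPM, the scaRNA SCARNA22 34.3 CPM, the H/ACA box SNORA12 31.2 CPM and the H/ACA box SNORA79B 7.95 CPM. Those first 4 held 73.9% of the member counts. The highest of the other classes were RNU5F-1 at 7.39 CPM, the U6 copy RNU6-826P at 6.52 CPM, RNVU1-25 at 4.98 CPM, RNU2-63P at 1.98 CPM, RNU7-45P at 1.31 CPM and RNU4-2 at 1.14 CPM. RNU5B-1 averaged 6.60 CPM. CPM is not divided by length, but a 3′ library gives about 1 read position per transcript, so these are levels on the CPM scale only.

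The 4 highest members varied widely between replicates of a group. RNU4ATAC ran from 6.49 CPM to 1099 CPM over the 30 libraries (median 271.2). Replicate 3 was the lowest of its group in 9 of 10 groups for RNU4ATAC, in 8 for SNORD13, in 6 for SCARNA22 and in 7 for SNORA12. Replicate 3 of Sorafenib-treated M512 stood furthest apart: RNU4ATAC was at 6.49 CPM there against a mean of 757.1 CPM in the other 2 libraries, a 117-fold gap. SCARNA22 was at 3.92 CPM against 56.6 CPM and SNORD13 at 6.12 CPM against 54.5 CPM in the same libraries. The U5 genes did not share this gap, for RNU5B-1 was at 26.2 CPM there, the highest of the 3 Sorafenib-treated M512 libraries, and RNU5F-1 was at 16.3 CPM against 23.6 CPM. Among 24 h libraries, replicate 1 held counts for 63 to 106 members and replicate 2 for 100 to 138 with totals of 5720660 to 8756018 for replicate 1 and 3941570 to 6484215 for replicate 2. The DMSO library of M222 replicate 1 had the fewest members with a count, 63, none of them at exactly 1 count. Genes at exactly 1 count were few in every 24 h replicate 1 library. They were 307 in this library and 295 in Sorafenib-treated M222. In DMSO and Sorafenib they were 485 and 348 in MC, and 419 and 437 in M512. Replicate 2 of Sorafenib-treated M512 (446) and of Sorafenib-treated I200c (444) were near them. So were replicates 1 (499) and 2 (453) of DMSO-treated I200c. The I200c libraries ran from 444 to 794 and the IC libraries from 997 to 1800. How duplicate reads were handled is not stated, so a low count or a 0 in these libraries may not mean the same as elsewhere. This bears on members at few counts in either treatment, those of M222 and I200c in DMSO among them. Libraries were amplified for 15 to 19 PCR cycles, with no molecular identifiers stated. The part of these differences in the results below was not tested, beyond leaving out each library in turn.

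**Figure D1:**
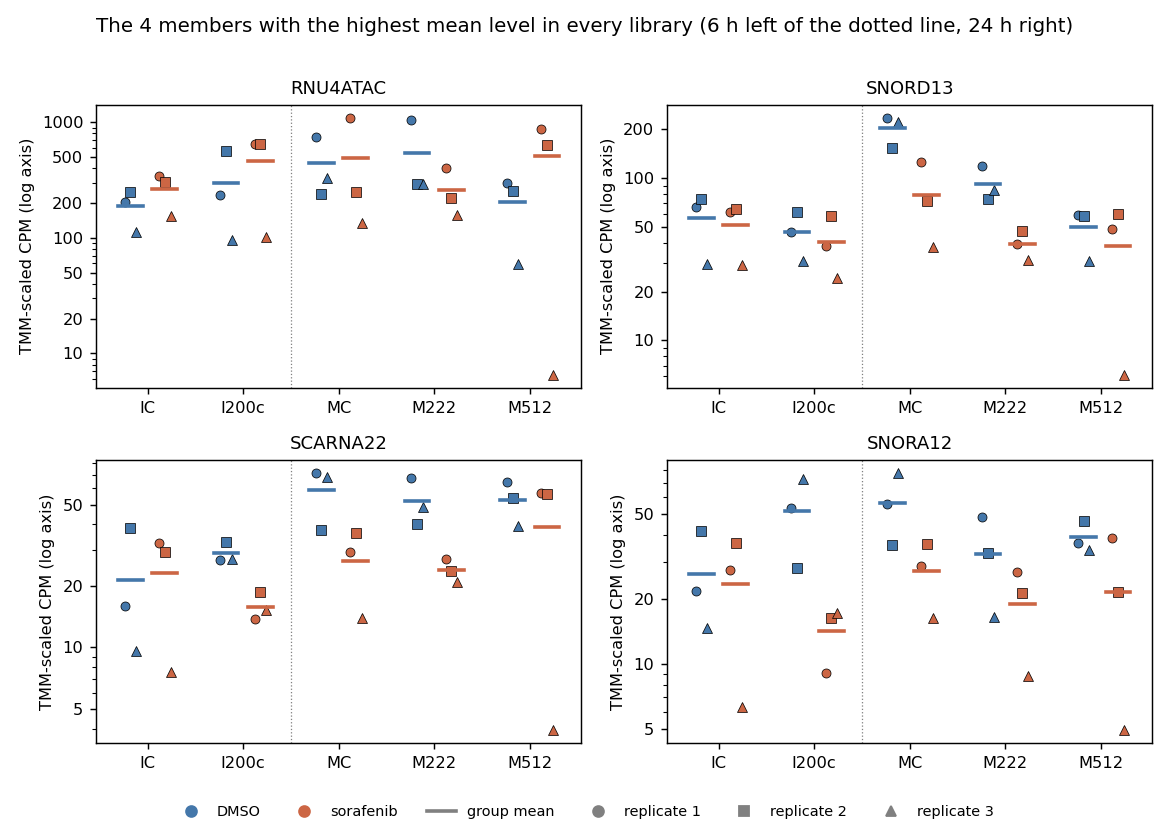
TMM-scaled CPM (log axis) of RNU4ATAC, SNORD13, SCARNA22 and SNORA12 in each of the 30 libraries by transfection, with circles, squares and triangles for replicates 1, 2 and 3 and a bar for each group mean. Replicate 3 of Sorafenib-treated M512 is the lowest point in all 4 panels, and SNORD13 is highest in DMSO-treated MC.

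RNU5B-1 was higher with Sorafenib in every transfection, with group means that grew from at most 1.33 CPM in DMSO to 5.44 CPM or more in 4 of 5. In MC it was at 0.766, 0.740 and 1.02 CPM in DMSO and at 42.7, 9.46 and 16.2 CPM with Sorafenib. In M222 it was at 0, 0.678 and 0 CPM in DMSO and at 10.3, 7.05 and 13.6 CPM with Sorafenib. In M512 it was at 0, 0 and 0.849 CPM in DMSO and at 18.5, 22.4 and 26.2 CPM with Sorafenib. The groups of the 24 h experiment did not overlap. At 6 h the levels were lower: in IC RNU5B-1 was at 1.17, 2.33 and 0.483 CPM in DMSO against 3.15, 6.04 and 7.14 CPM with Sorafenib. In I200c it was at 1.78, 0 and 0.112 CPM against 0.788, 3.58 and 0.836 CPM, and only there did the groups overlap. As a description, the fitted log2 fold change was 2.02 in IC, 1.52 in I200c, 4.72 in MC, 5.84 in M222 and 6.24 in M512. Leaving out 1 library moved it to 0.43 to 4.53 in I200c, where replicate 2 of Sorafenib and replicate 1 of DMSO set the ends, and to as much as 9.10 in M222 without replicate 2 of DMSO and 10.16 in M512 without replicate 3 of DMSO, the only DMSO libraries there with a count. In M222 the DMSO libraries held 3 counts of RNU5B-1 and the Sorafenib libraries 193, a ratio of 63.6 that rests on those 3 counts.

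**Figure D2:**
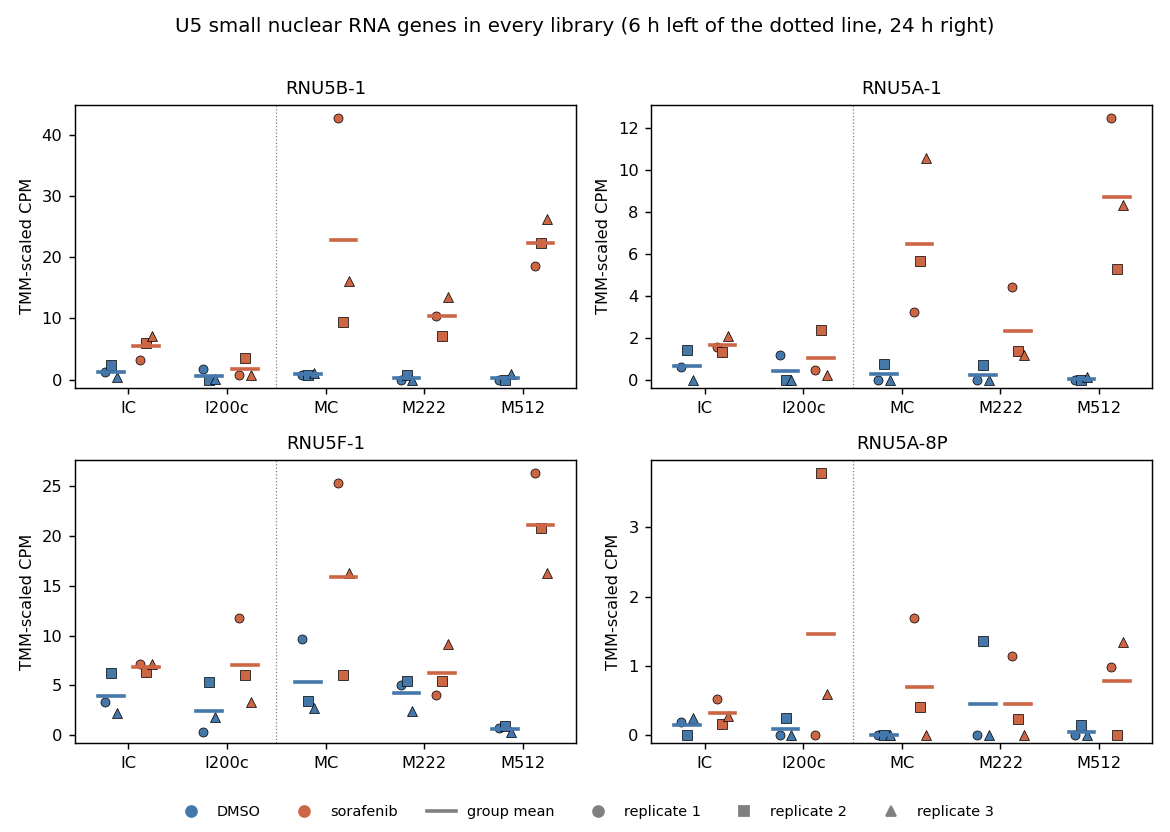
TMM-scaled CPM of the 4 U5 genes in each of the 30 libraries, with DMSO in blue, Sorafenib in orange, marker shape for the replicate and a bar for each group mean. RNU5B-1 is at 7.05 CPM or more in every Sorafenib library of the 24 h experiment, and at no more than 1.02 CPM in its DMSO libraries.

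Among members other than RNU5B-1, few passed the test across all genes (adjusted p under 0.05). In MC, 1 of 189 was called against 2.1% of all 16613 genes tested, which is 0.529% of the members. In M222, 1 of 189 was called against 3.58% of all genes, and in M512 7 of 189, or 3.7%, against 7.62% of all genes. At 6 h, 0 of 185 were called in IC, where 0.0904% of all 16593 genes were called. edgeR gave 5 of these 185 an unadjusted p under 0.05 in IC, and DESeq2 called 0, with 181 of the 185 left without an adjusted p by its own filter. In I200c 5 of 185 were called, or 2.7%, against 1.97% of all genes. Of the members, 59 in M512 and 29 in MC were at 0 in one of the treatment groups, so their changes have no upper limit.

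For 46 of the 190 members the threshold of 30 counts was met only through the group where they were highest, 4 of them through Sorafenib-treated M512, and of the called members this holds for SNORD117. Counts and medians over the members are therefore a description. Of the 10 other members called in any transfection, RNU5A-1, RNVU1-25, RNVU1-31 and SNORD101 were each called in 2. With group sums under 3 counts set to 3, 126 of 189 members other than RNU5B-1, called ones included, came out higher with Sorafenib in M512 and 122 in M222. It was 83 in MC, 88 of 185 in IC and 81 of 185 in I200c. A member at 3 counts or fewer in both groups takes its direction here from the library totals alone. These numbers therefore do not count members that rose. Members with no count in either group were 13 in M512, 13 in M222, 8 in MC, 2 in IC and 17 in I200c. The same count over all genes is not given. The median member log2 fold change, with group sums under 3 counts set to 3 in the same way, was 0.239 in M512 against 0.00386 over all genes. It was 0.105 against 0.0118 in M222, -0.00629 against -0.00629 in MC, -0.0682 against -0.00933 in IC and -0.184 against 0.000863 in I200c. In M512, M222, MC and I200c this median is the value that a member at 3 counts or fewer in both groups takes from the library totals alone. It is therefore not read as a shift of the members.

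**Figure D3:**
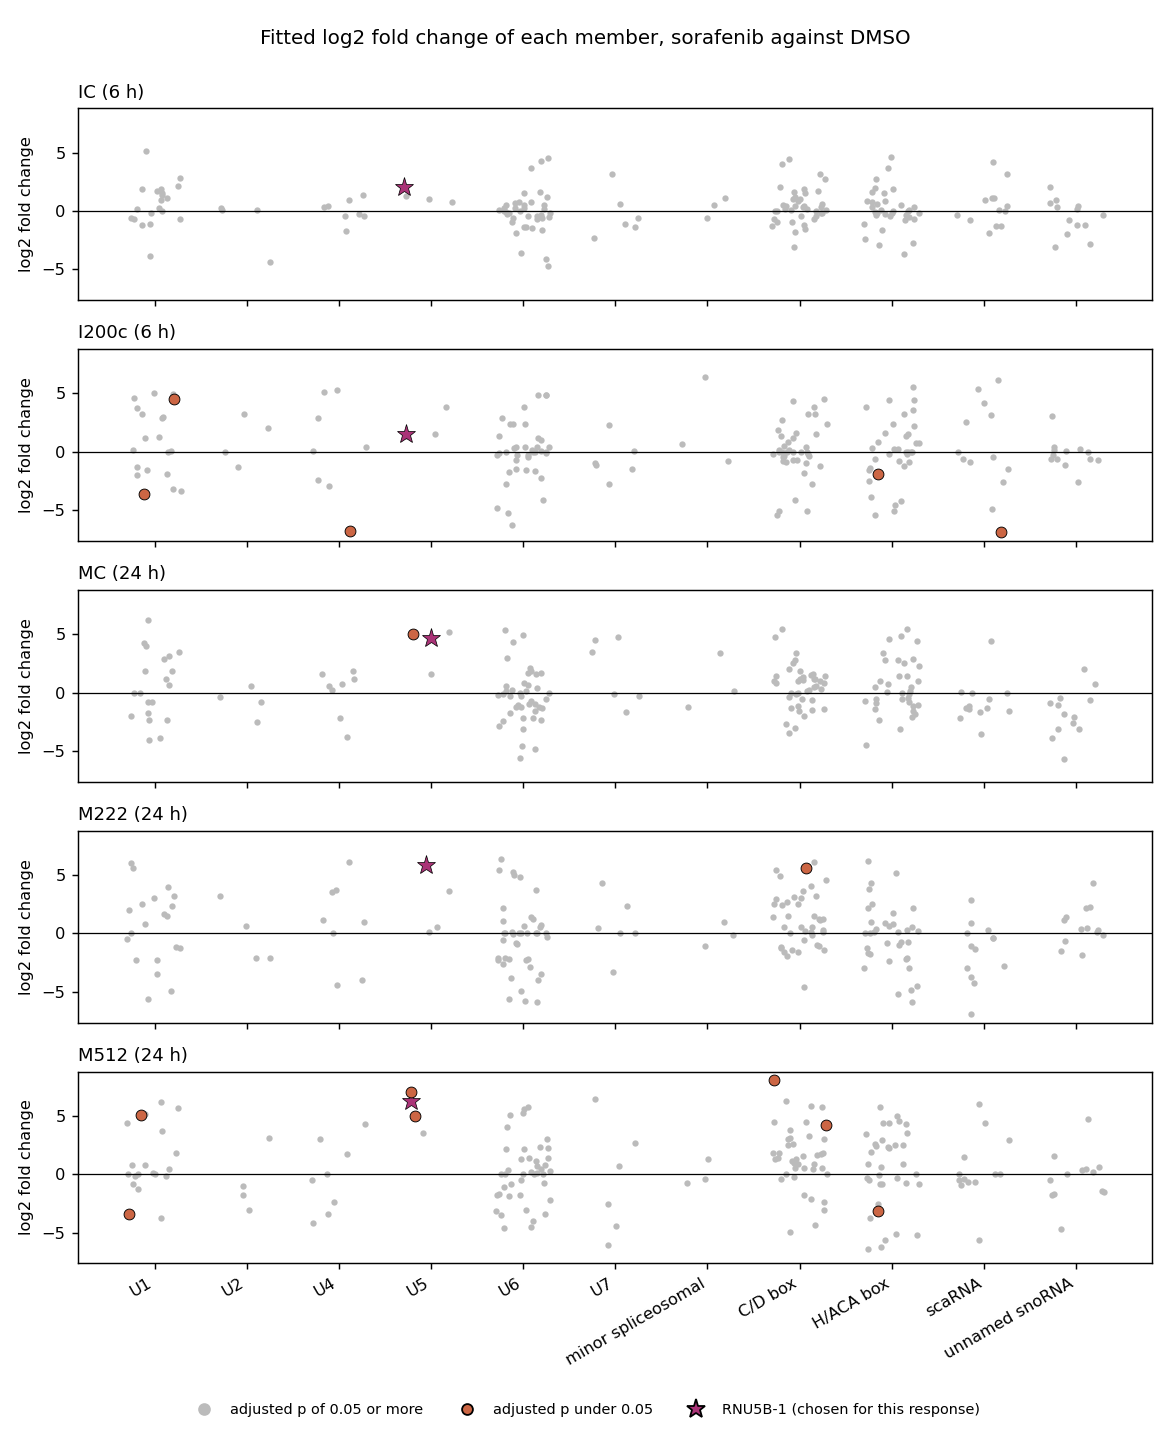
Fitted log2 fold change of each member, Sorafenib against DMSO, by class on the x axis and in 1 panel per transfection; grey points did not pass an adjusted p of 0.05, orange points did, and the star is RNU5B-1. Every U5 point lies above 0 in all 5 panels, and called points are 5 in I200c, 1 in MC, 1 in M222 and 7 in M512.

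RNU5A-1, the other main U5 gene, was up-regulated in MC and M512. In M512 it was at 0, 0 and 0.142 CPM in DMSO and at 12.5, 5.25 and 8.33 CPM with Sorafenib, so every treated library was above every control library. The log2 fold change was 7.05 ± 1.37 (SE, adjusted p = 0.000923), from 1 count in DMSO to 159 with Sorafenib, a ratio of 165 (exact 95% counting interval 29.3 to 6580). In MC it was at 0, 0.740 and 0 CPM in DMSO and at 3.24, 5.64 and 10.6 CPM with Sorafenib (log2 fold change 4.98 ± 1.22, adjusted p = 0.0225). The MC call was lost without replicate 1 or 3 of DMSO or replicate 3 of Sorafenib (adjusted p 0.127 to 0.164), and DESeq2 gave no adjusted p for it. In M222 the groups did not overlap either, at 0, 0.678 and 0 CPM against 4.41, 1.37 and 1.19 CPM, but the change of 3.61 ± 1.21 did not pass (adjusted p = 0.098; 0.0296 in DESeq2). At 6 h the values were 1.31 ± 1.32 in IC and 1.39 ± 1.32 in I200c. RNU5A-1 and RNU5B-1 are close copies of each other, so how their reads were divided is uncertain.

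RNU5F-1, a U5 variant, was up-regulated in M512 and had the smallest adjusted p of any other member. It was at 0.739, 0.913 and 0.283 CPM in DMSO and at 26.4, 20.8 and 16.3 CPM with Sorafenib, a log2 fold change of 5.00 ± 0.655 (adjusted p = 4.46e-06). In MC it was at 9.70, 3.45 and 2.76 CPM in DMSO and at 25.4, 6.04 and 16.3 CPM with Sorafenib, with overlapping groups (1.56 ± 0.534, adjusted p = 0.128). The change was 0.54 ± 0.546 in M222, 0.81 ± 0.589 in IC and 1.498 ± 0.580 in I200c, with no call. RNU5A-8P, with 99 counts in all, passed in no transfection: its fitted change was 1.03 in IC, 3.86 in I200c, 0.13 in M222 and 3.57 in M512, and it had no count in DMSO-treated MC. RNU5F-1 gave 44.6% of all U5 counts, RNU5B-1 39.6%, RNU5A-1 12.8% and RNU5A-8P 3.04%.

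Summed over the 4 genes, U5 counts were higher with Sorafenib in every transfection, without overlap between groups in 4 of 5. The sum went from 6.68 ± 3.72 CPM (SD, n = 3) to 43.99 ± 23.4 CPM in MC, from 5.29 ± 2.79 to 18.4 ± 4.46 CPM in M222 and from 1.04 ± 0.268 to 47.4 ± 6.37 CPM in M512. At 6 h it went from 6.24 ± 3.64 to 14.4 ± 2.04 CPM in IC and from 3.67 ± 1.71 to 11.5 ± 5.71 CPM in I200c, where the groups overlapped. With RNU5B-1 left out, the sum went from 5.80 to 22.2 CPM in MC, from 0.757 to 27.3 CPM in M512 and from 4.88 to 8.92 CPM in IC without overlap. In M222, from 5.07 to 8.56 CPM, and in I200c, from 3.00 to 9.70 CPM, the groups overlapped. As RNU5B-1 was chosen for this response, these sums are a description.

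**Figure D4:**
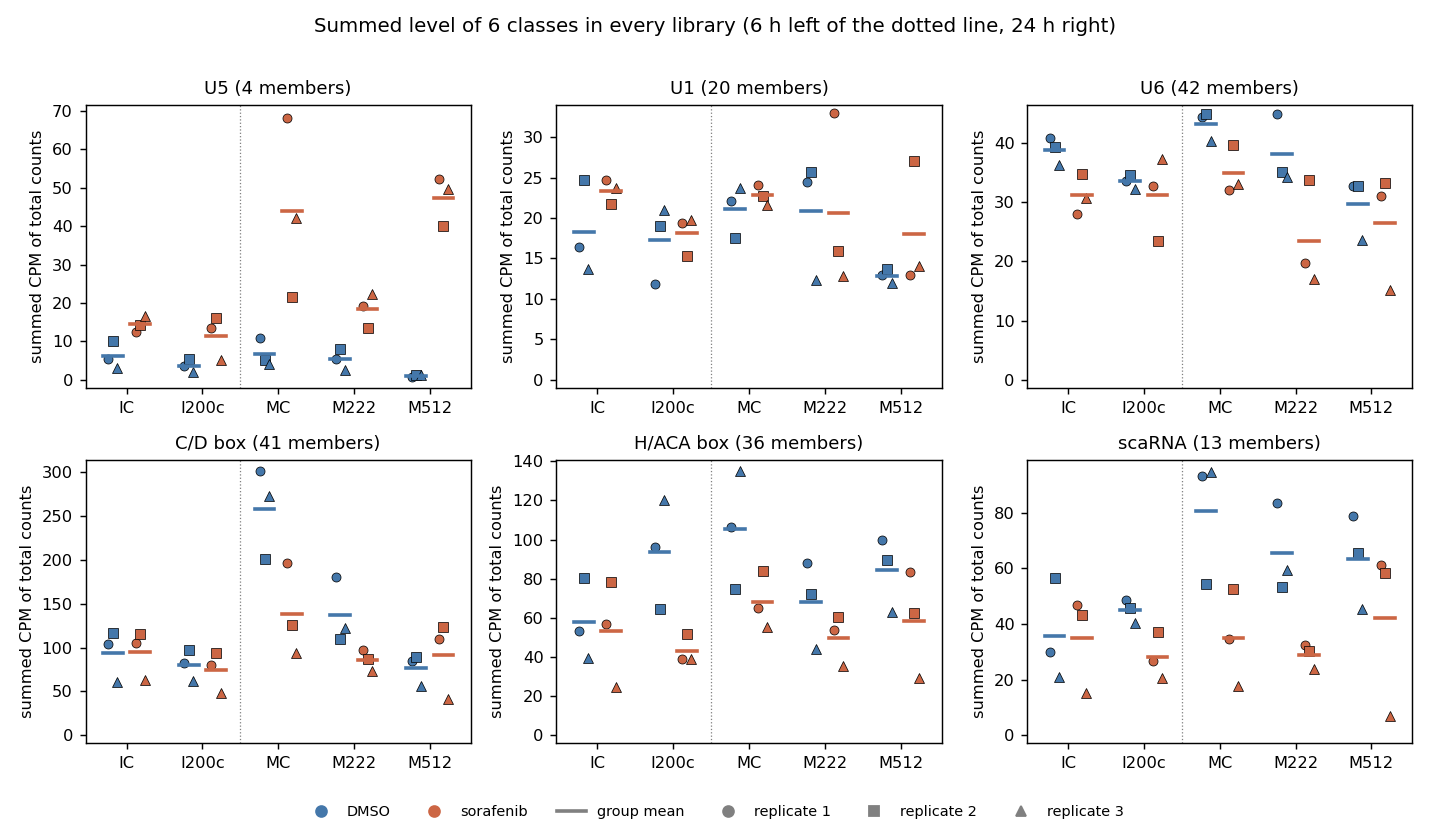
Summed CPM of the U5, U1, U6, C/D box, H/ACA box and scaRNA members in each library by transfection, with DMSO in blue, Sorafenib in orange, marker shape for the replicate and a bar for each group mean. As CPM of total counts, U5 sums are higher with Sorafenib in each transfection and U1 sums overlap in all 5. C/D box and scaRNA sums are lower with Sorafenib in MC and M222.

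The 2 U1 variants with calls moved in opposite directions. RNVU1-31 was higher with Sorafenib in all 5 transfections without overlap, and was up-regulated in I200c and M512. In I200c it was at 0, 0.247 and 0 CPM in DMSO and at 3.60, 1.53 and 1.91 CPM with Sorafenib (log2 fold change 4.54 ± 1.03, adjusted p = 0.0141). In M512 it was at 0, 0.457 and 0 CPM against 0.781, 11.7 and 4.04 CPM (5.09 ± 1.34, adjusted p = 0.0145). The other values were 1.89 ± 0.814 in IC, 4.22 ± 1.33 in MC (adjusted p = 0.0934) and 2.02 ± 1.12 in M222. Both calls rest on 2 and 3 counts in DMSO, with ratios of 26.9 (exact 95% counting interval 7.16 to 227) and 33.7 (11.2 to 166). The I200c call was lost without replicate 1 or 3 of DMSO or replicate 1 of Sorafenib (adjusted p 0.0551 to 0.0744), and the M512 call without replicate 1 or 3 of DMSO or replicate 2 of Sorafenib (0.0815 to 0.0989). The near-identical RNVU1-7 was at 0 CPM in all DMSO libraries of I200c, MC and M512 and at 0.201 to 3.67 CPM in their Sorafenib libraries, with no call by edgeR and 1 by DESeq2, in M512 (5.76, adjusted p = 0.0397).

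RNVU1-25, in which the exact string ACTTACCTG is absent, was down-regulated in I200c and M512. In I200c it was at 3.70, 7.04 and 6.81 CPM in DMSO and at 0.675, 0 and 0.717 CPM with Sorafenib (log2 fold change -3.65 ± 0.659, adjusted p = 0.00154). In M512 it was at 6.28, 4.57 and 7.50 CPM against 0.781, 0.778 and 0.245 CPM (-3.37 ± 0.757, adjusted p = 0.00403). It was also lower, without overlap, in IC (-1.16 ± 0.556) and MC (-2.01 ± 0.663, adjusted p = 0.113; DESeq2 -2.05, adjusted p = 0.0308), and in M222 the groups overlapped (-1.17 ± 0.640). No single library, left out, ended the calls in I200c and M512. The U1 sum of 20 members, as CPM of total counts, overlapped between treatments in every transfection. With the TMM factors applied, its M512 groups did not overlap.

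**Figure D5:**
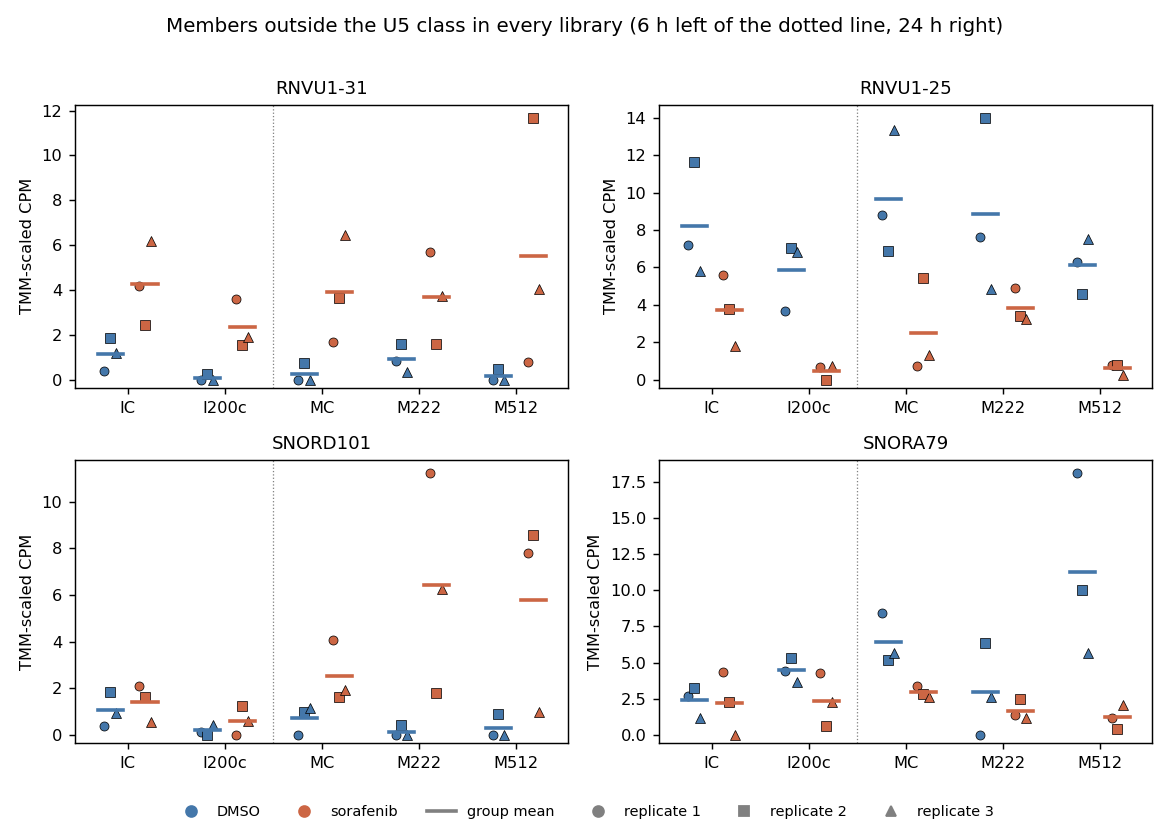
TMM-scaled CPM of RNVU1-31, RNVU1-25, SNORD101 and SNORA79 in each of the 30 libraries by transfection, with DMSO in blue, Sorafenib in orange, marker shape for the replicate and a bar for each group mean. RNVU1-31 lies higher and RNVU1-25 lower with Sorafenib, and SNORD101 lies higher in M222 and M512.

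Of the C/D box snoRNAs, SNORD101 was up-regulated in 2 transfections. It lies at chr6:132815307-132815379 on the plus strand in an intron of RPS12, a ribosomal protein gene, and its C box and D box are in capitals.
SNORD101: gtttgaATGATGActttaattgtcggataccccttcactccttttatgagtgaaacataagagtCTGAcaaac

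In M222 SNORD101 was at 0, 0.452 and 0 CPM in DMSO and at 11.2, 1.82 and 6.27 CPM with Sorafenib, a log2 fold change of 5.61 ± 1.45 (adjusted p = 0.0223). This rests on 2 counts in DMSO against 134, a ratio of 66.2 (exact 95% counting interval 18 to 553). In M512 it was at 0, 0.913 and 0 CPM in DMSO and at 7.81, 8.56 and 0.9795 CPM with Sorafenib (4.22 ± 1.28, adjusted p = 0.0372). In MC the change was 1.85 (adjusted p = 0.474), and at 6 h it was 0.41 in IC and 1.499 in I200c. Its host RPS12 changed by 0.53 in M222 (adjusted p = 0.194) and was up-regulated by 0.74 in M512 (adjusted p = 0.0273). The M222 call was lost without replicate 1 or 3 of either group (adjusted p 0.0589 to 0.129). The M512 call was lost without replicate 1 or 3 of DMSO, replicate 1 or 2 of Sorafenib, or replicate 3 of Sorafenib-treated M222 (0.05 to 0.155).

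SNORD117, in an intron of DDX39B, an RNA helicase gene, was at 0 CPM in all 3 DMSO libraries of M512 and at 6.05, 8.17 and 1.22 CPM with Sorafenib. It held 83 counts there and 28 in all other groups, so it met the count threshold only through the group in which it was high, and its call is not read as a result. In the other transfections it reached no more than 1.21 CPM with Sorafenib, and in I200c it had no count. DDX39B itself was up-regulated in M512 (2.32, adjusted p = 0.00186) and in I200c (1.76, adjusted p = 0.019).

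With group sums under 3 counts set to 3, 34 of 41 C/D box members came out higher with Sorafenib in M512, 29 in M222 and 24 in MC. Members at 3 counts or fewer in both groups take their direction from the library totals alone, higher in M512 and M222 and lower in MC. In M512 the C/D box sum overlapped between groups (76.8 ± 18.4 to 91.4 ± 44.2 CPM). SNORD101 was called there, beside SNORD117, whose call is not read as a result. As CPM of total counts, the sum was lower with Sorafenib without overlap in MC, from 258.3 ± 51.8 to 138.6 ± 52.4 CPM, and in M222 from 137.5 to 85.7 CPM. In MC the nearest libraries were at 196.2 CPM (replicate 1 of Sorafenib, TMM factor 0.9346) and 200.7 CPM (replicate 2 of DMSO, 1.028). With these factors applied the MC groups overlapped. SNORD13 was the highest C/D box member. Its mean in DMSO, TMM-scaled, was 204.5 CPM in MC and 92.8 CPM in M222, which is most of the class sum. The lower sums thus largely track this member and do not describe the class member by member. It was at 236.8, 154.2 and 222.4 CPM in DMSO-treated MC and at 125.8, 72.3 and 37.8 CPM with Sorafenib, a change of -1.38 ± 0.427 that did not pass (adjusted p = 0.0867). In M222 it was at 119.1, 74.8 and 84.4 CPM against 39.5, 47.6 and 31.2 CPM (-1.23 ± 0.432, adjusted p = 0.118). Without replicate 3 of Sorafenib-treated M512, which the 24 h groups share in the estimate of spread, SNORD13 passed in both (adjusted p = 0.00599 in MC and 0.013 in M222). In M222, where same-numbered replicates deviated together, the fit with the replicate as a block called 2 members, SNORD101 and SNORD13 (-1.24, adjusted p = 0.0306).

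Of the H/ACA box snoRNAs, SNORA12 and SNORA79 were down-regulated in 1 transfection each. SNORA12 lies at chr10:100237156-100237302 on the minus strand in an intron of CWF19L1, and its ACA box is in capitals.
SNORA12: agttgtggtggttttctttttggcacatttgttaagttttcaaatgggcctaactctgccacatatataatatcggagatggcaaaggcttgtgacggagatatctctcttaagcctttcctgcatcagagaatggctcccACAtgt

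In I200c SNORA12 was at 53.7, 27.9 and 73.2 CPM in DMSO and at 9.11, 16.4 and 17.3 CPM with Sorafenib (log2 fold change -1.86 ± 0.404, adjusted p = 0.00994), while its host CWF19L1 changed by 0.26 (adjusted p = 0.718). The change was -1.07 in MC, -0.78 in M222, -0.86 in M512 and -0.17 in IC, with no call. Without replicate 3 of DMSO or replicate 1 of Sorafenib the I200c call was lost (adjusted p 0.059 to 0.0774), and DESeq2 did not make it (0.0876). The H/ACA sum in I200c was lower without overlap, from 93.6 ± 27.98 to 43.1 ± 7.50 CPM, of which SNORA12 was a large share.

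SNORA79, in an intron of GTF2A1, a general transcription factor gene, was at 18.1, 10.1 and 5.66 CPM in DMSO-treated M512 and at 1.17, 0.389 and 2.08 CPM with Sorafenib. The log2 fold change was -3.14 ± 0.877 (adjusted p = 0.0221), against 0.16 for GTF2A1 (adjusted p = 0.858). The call was lost without replicate 1 of DMSO or replicate 1 or 2 of Sorafenib (adjusted p 0.0723 to 0.137). In the other transfections the change ran from -1.13 in MC to -0.15 in IC, with no call.

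Of the scaRNAs and U4 copies, SCARNA8 and RNU4-40P were down-regulated in I200c, both to no count at all. SCARNA8, in an intron of HAUS6, was at 2.07, 2.97 and 1.12 CPM in DMSO and at 0 CPM in the 3 Sorafenib libraries, at least 18.2-fold lower (adjusted p = 0.0397). RNU4-40P, in an intron of PHF20, was at 0.887, 4.08 and 1.00 CPM in DMSO and at 0 CPM with Sorafenib, likewise at least 18.2-fold lower (adjusted p = 0.0237). HAUS6 changed by -0.52 (adjusted p = 0.156) and PHF20 by 0.20. Without 1 of 4 libraries (replicate 2 of DMSO or any Sorafenib library) the RNU4-40P call was lost (adjusted p 0.0535 to 0.102). The SCARNA8 call was lost without replicate 1 or 2 of DMSO, any Sorafenib library, or replicate 1 or 3 of DMSO-treated IC (0.0517 to 0.118). The scaRNA sum was lower with Sorafenib without overlap in MC (80.8 to 34.8 CPM), M222 (65.4 to 28.8 CPM) and I200c (44.9 to 28.1 CPM). In MC 11 of 13 scaRNAs came out lower with group sums under 3 counts set to 3. Members at 3 counts or fewer in both groups count as lower there through the library totals alone. SCARNA22, which overlaps an exon of NSD2, made up much of the scaRNA sum and passed in none of the 3 transfections (adjusted p 0.213 to 0.259). It passed in MC (adjusted p = 0.0235) and M222 (0.0224) once replicate 3 of Sorafenib-treated M512 was left out.

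Few members of the other classes passed the test. As CPM of total counts, the U6 sum of 42 members was lower with Sorafenib without overlap in 3 transfections. These were IC (38.9 to 31.2 CPM), MC (43.2 to 35.0 CPM) and M222 (38.1 to 23.5 CPM). In MC the nearest libraries were at 39.7 CPM (Sorafenib) and 40.4 CPM (DMSO), and in M222 at 33.7 and 34.3 CPM. With the TMM factors applied, the groups overlapped in MC and M222, so the separation there depends on the scaling. edgeR called no U6 copy, with 1 call by DESeq2 (RNU6-97P in I200c, -6.05, adjusted p = 0.0138). The U4 sum was higher in M222 (1.14 to 3.11 CPM), and the U7 sum was lower in I200c (4.06 to 1.67 CPM) and higher in M222 (2.08 to 4.88 CPM). RNU4ATAC changed by 0.16 in MC, -1.05 in M222, 1.33 in M512, 0.49 in IC and 0.64 in I200c, with adjusted p of 0.34 or more. Without replicate 3 of Sorafenib-treated M512 its M512 change was 1.91 (adjusted p = 0.0449). Summed over all members without the 4 highest, the groups overlapped in every transfection. The mean went from 147 CPM in DMSO to 220 CPM with Sorafenib in M512 and from 216 to 243.7 CPM in MC. It went from 172.6 to 173.7 CPM in M222, from 172.7 to 178.6 CPM in IC and from 168.6 to 157.3 CPM in I200c.

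In DMSO the oligonucleotides themselves changed few members. M512 against MC gave 2 calls among 189 other members (1.06%), against 0.536% of all genes. RNU5F-1 was at 0.645 CPM in M512 and 5.30 CPM in MC (log2 fold change -3.03 ± 0.643, adjusted p = 0.0214), and the Sorafenib fold in M512 is taken against this lower level. SNORD13 was at 49.8 CPM in M512 and 204.5 CPM in MC (-2.04 ± 0.437, adjusted p = 0.0219). Both comparisons share the 3 DMSO libraries of M512 with the Sorafenib comparison of M512. The RNU5F-1 call was lost without replicate 1 of MC or any M512 library (adjusted p 0.0713 to 0.197), and the SNORD13 call without replicate 1 or 3 of MC or any M512 library (0.061 to 0.172). RNU5B-1 did not pass (-1.55 ± 0.94, adjusted p = 0.633). M222 against MC gave 0 calls among members and in 0% of all genes, and I200c against IC gave 0 among members against 0.0482% of all genes. By edgeR 10 and 12 members had an unadjusted p under 0.05 there, and DESeq2 called 0 in both, though its filter left 183 members without an adjusted p in M222 against MC.

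No member passed the test of whether the Sorafenib effect differed between an oligonucleotide and its control in edgeR. For I200c 16 members had an unadjusted p under 0.05 (0.0181% of all genes were called), for M222 15 (0% called) and for M512 11 (0.00602% called). DESeq2 called 0 members for I200c and M222 and 1 for M512, where its filter left 183 without an adjusted p, and that 1 was RNU5F-1. Its effect was larger in M512 than in MC by 3.44 ± 0.822 on the log2 scale in edgeR (adjusted p = 0.271) and by 3.49 in DESeq2 (adjusted p = 0.0425). The calls in M512 and not in MC are therefore not shown to differ between the 2 transfections, and DESeq2 alone makes that call for RNU5F-1.

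Genes that make, carry and trim these RNAs were counted by list. The share of all genes called was 2.1% in MC, 3.58% in M222, 7.62% in M512, 1.97% in I200c and 0.0904% in IC. Of 22 Integrator and snRNA transcription genes tested, 1 was called, INTS14, which fell from 23.4 to 7.13 CPM in M512 (log2 fold change -1.67 ± 0.480, adjusted p = 0.0273). Of 27 snRNP assembly and export genes, GEMIN4 of the SMN complex was down-regulated in MC (-1.60, adjusted p = 0.0156) and M512 (-1.61, adjusted p = 0.00491). PHAX, the export adaptor of snRNAs, was up-regulated in M512 (61.8 to 99.2 CPM, 0.69, adjusted p = 0.0419). Of 15 U5 and tri-snRNP protein genes, 0 were called in any transfection, and their median log2 fold change ran from -0.0744 to 0.0181.

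Of 19 snoRNP core and assembly genes, 5 were up-regulated in M512: NOP58 and SNU13, which bind C/D box RNAs, NAF1, which assembles H/ACA particles, and the assembly factors NUFIP1 and ZNHIT6. Their log2 fold changes were 0.78 for NOP58, 0.69 for SNU13, 1.57 for NAF1, 0.99 for NUFIP1 and 1.29 for ZNHIT6, with adjusted p of 0.0233 or less. In MC TCOF1, a nucleolar factor of ribosomal RNA transcription, was the 1 call of this list (0.75, adjusted p = 0.0472). Of 27 tailing, trimming and decay genes tested, the exosome subunit EXOSC9 was up-regulated in M222 (0.86, adjusted p = 0.0228) and M512 (0.83, adjusted p = 0.0155). RBM7 of the nuclear exosome targeting complex was up-regulated in M222 (1.77, adjusted p = 0.023), and the poly(A) polymerase TENT4B, which tails RNAs for the exosome, in M512 (244.1 to 497.6 CPM, 1.03, adjusted p = 0.00737). MEPCE, which caps 7SK RNA, was down-regulated in I200c (-1.06, adjusted p = 0.0111).

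Host genes that carry snoRNAs in their introns were up-regulated in part at 24 h. Of 32 such genes tested, 8 were up-regulated in MC, where 2.1% of all genes were called. In M222 7 were up-regulated, against 3.58% of all genes called, and in M512 10 were up-regulated and 1 down-regulated, against 7.62%. In I200c 2 were up-regulated and 1 down-regulated, against 1.97% of all genes called, and in IC 0 were called, against 0.0904%. The median log2 fold change was 0.35 in MC, 0.374 in M222, 0.557 in M512 and 0.101 in IC. SNHG17 was up-regulated in 4 of 5 transfections, with log2 fold changes of 0.91 (I200c), 1.46 (MC), 1.61 (M222) and 1.72 (M512, adjusted p = 1.25e-05). EPB41L4A-AS1 passed at 24 h, with 1.62 in MC against 1.42 (M222) and 1.91 (M512). SNHG32 passed in the same 4 transfections as SNHG17, and its highest level was 316.5 CPM in Sorafenib-treated M512, up from 131.7 CPM. ZFAS1 went from 226 to 594.9 CPM in MC (adjusted p = 0.0156) and passed in the other 24 h transfections too. GAS5 rose from 92.0 to 250.6 CPM in M512 (adjusted p = 2.2e-05). SNHG3 fell by 0.86 in I200c and SNHG14 by 0.80 in M512 on the log2 scale. Of the 136 tested annotated hosts of members, 19 were up-regulated and 5 down-regulated in M512, 6 up-regulated in MC, and 6 up-regulated with 1 down-regulated in M222, beside the same shares of all genes.

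The genes whose levels most resembled RNU5B-1 over the 30 libraries were ARRDC3 (Spearman rho 0.913), RNU5A-1 (0.91), EPB41L4A-AS1 (0.899), TLE1 (0.888) and SLC44A2 (0.885). Among members the order was RNU5A-1, RNVU1-7 (0.816), SNORD101 (0.778), RNU5F-1 (0.7) and SNORD83A (0.683). All these values share the same libraries and their treatment groups, and RNU5B-1 was picked for its response to Sorafenib. Picking genes that resemble RNU5B-1 favours those that rise with Sorafenib, so the levels that follow are a description. ARRDC3, an arrestin-domain gene, went from 18.3 ± 5.10 to 76.8 ± 11.5 CPM with Sorafenib in MC and from 7.79 to 92.3 ± 20.6 CPM in M512. SLC44A2, a choline transporter gene, went from 5.49 to 31.3 CPM in MC and from 3.47 to 49.2 CPM in M512.

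An oligo(dT) primer can meet A-rich sequence in or next to a gene, so runs of A were counted. A run of at least 10 A on the gene strand within 200 bases downstream was found at 28 of 87 snRNA members (32.2%) and at 129 of 1552 annotated snRNA genes with 0 counts (8.31%). For snoRNA genes the shares were 12% of 92 members and 6.56% of 701, and for scaRNA genes 0 of 11 and 17.2% of 29. Inside the gene, a run of at least 6 A was found in 0 of 87 snRNA members and 6.64% of snRNA genes with 0 counts. For snRNA genes the 2 measures thus went in opposite directions. The inside shares were 7.61% of snoRNA members against 6.7% of snoRNA genes with 0 counts, and 9.09% against 3.45% for scaRNA genes. The longest downstream run was 6 bases for RNU5B-1, 4 for RNU5A-1, 3 for RNU5F-1, 7 for RNU5A-8P and 4 for RNU4ATAC, so none of these had such a run. Members were chosen on counts, so this is a description with no test.

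The libraries carried the markers of HepG2 cells: all 8 hepatocyte markers were detected in every group, with ALB at 2053 to 5207 CPM. Of the markers of other cells, DES was at 0 CPM throughout, PTPRC reached 0.144 CPM, PECAM1 3.08 CPM and COL1A1 11.9 CPM. Of the hepatocyte markers, 1 was down-regulated with Sorafenib in MC, 1 in M222 and 3 in M512. APOB fell by 1.28 on the log2 scale (adjusted p = 0.00105), AFP by 1.05 (adjusted p = 0.0133) and ALB by 0.61 (adjusted p = 0.0495) in M512. Their part in the member results was not tested.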

How the data were processed

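Counts were measured in 30 HepG2 libraries (QuantSeq 3′ FWD, 350 ng of RNA). The authors ran the Bluebee QuantSeq pipeline: reads were trimmed, STAR mapped them to GRCh38, with ENCODE settings that were modified, and HTSeq-count assigned them to genes. The annotation release, the strand setting and the handling of multiply mapped reads are not given in the sources used here. The authors deposited raw counts, which are the values used, and a normalised table, which was not used. The 92 rows that named no gene held 3 counts and were left out. All 30 columns were assigned from the labels.

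Gene types, positions and hosts came from GENCODE 44, to which 56104 of 60107 genes matched, and sequences from GRCh38. The sequences of the U5 genes are not reported here. Genes with a count sum of at least 30 over all libraries were tested with edgeR 4.0.16 (quasi-likelihood F test, R 4.3.3), with TMM scaling and 1 coefficient per group, for 6 h (12 libraries) and 24 h (18 libraries) apart. Tests were two-sided, and p-values were adjusted over all genes tested by the Benjamini-Hochberg method. An SE was taken as the absolute log2 fold change over the root of F. Levels are TMM-scaled CPM, and class sums are CPM of total counts. On simulated counts the test was checked against known changes.

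Members and gene lists were chosen with earlier results of these data known. Named are the U5 genes, the 5 highest members, the highest member of each class, up to 6 called members per Sorafenib contrast by size of change, and the 5 genes most like RNU5B-1 by Spearman correlation of log2(CPM + 0.5). Likewise named are the 5 members most like RNU5B-1, the members beside the count threshold and up to 4 called genes per list and contrast. SNORA79, SNU13, SNHG14, RNVU1-28 and the hosts of called members were named after their values were seen. Same-numbered libraries of the 2 groups deviated together in M222, DMSO against Sorafenib (correlations of 0.164, 0.127 and 0.183), and in M222 against MC in DMSO (0.306, 0.27 and 0.318). In IC and I200c they were all positive too, but as low as 0.0297 and 0.0195. The labels give no reason, so the block stands as an alternative. DESeq2 1.42.0, other scalings, other filters, the legacy setting of edgeR and each library left out were the other alternatives. Count limits and intervals cover counting error only.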

Additional observations from a re-analysis of the deposited data

How the results depend on the processing

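Counts of other members called moved by more than 1.5 times under these settings. With the edgeR filter on low counts I200c gave 3 calls. With no filter I200c gave 9, MC 5, M222 5, I200c against IC in DMSO 2, and M222 against MC in DMSO, the I200c interaction and the M512 interaction 1 each. With the non-legacy quasi-likelihood fit I200c gave 9, MC 3, M222 3 and M512 against MC in DMSO 1. With DESeq2 I200c gave 8, M222 2, M512 12 and the M512 interaction 1. With the replicate number as a block MC gave 3, adding SNORD13 (-1.57, adjusted p = 0.00675) and RNVU1-31 (4.60, adjusted p = 0.0442), and M222 gave 2. In I200c it added SCARNA13 (-1.58, adjusted p = 0.0368), and it ended no call. Outside M222 the correlations of same-numbered libraries, DMSO against Sorafenib, were uneven. They were 0.0297, 0.113 and 0.385 in IC and 0.0195, 0.126 and 0.319 in I200c, and of mixed sign in MC and M512. Whether the replicate number stands for a shared effect is thus not settled. DESeq2 shared 7 of the 7 edgeR calls in M512, 4 of 5 in I200c and 0 of 1 in MC, where it gave RNU5A-1 no adjusted p and called RNVU1-25. The cause of these differences was not tested, apart from fewer or more genes tested under the filters.

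Leaving out 1 library gave 1 to 5 calls in I200c, 0 to 3 in MC, 0 to 3 in M222, 3 to 9 in M512 and 0 to 2 in M512 against MC in DMSO. IC, the other DMSO comparisons and the interactions stayed at 0. Directions turned for RNU5A-1 in I200c, from -0.13 to 5.86, and for RNU5A-8P in M222, from -1.82 to 4.68, where the values without replicate 1 and 3 of DMSO were -0.49 and -0.45. The calls of RNU5A-1 and RNU5F-1 in M512 and of RNVU1-25 in I200c and M512 passed in every such fit. Scaling by total counts moved the median log2 fold change of all genes in M512 from -0.0304 to -0.222, in M222 to -0.143 and in MC to -0.129. Calls over all genes went from 688 up and 578 down to 435 and 985 in M512, from 403 and 191 to 295 and 303 in M222, and from 240 and 109 to 169 and 164 in MC. Under TMM scaling the ratio of group means of all 75 class sums kept its direction or stayed within the spread. Overlap of groups was judged on CPM of total counts and depended on the scaling for some sums. With the TMM factors applied, the groups overlapped for C/D box in MC and for U6 in MC and M222. The U1 groups in M512 then no longer overlapped. Both other scalings kept the same 5, 1, 1 and 7 members called in I200c, MC, M222 and M512. At a count sum of 60 there would be 128 members, and at 15 there would be 279. Depth limits most members, at 94.5 counts for the median member over 30 libraries.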
